A study of Mus musculus with 32 samples.

Results

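The proteasome genes were read across the MC38 tumors and cultures. MC38 is a mouse colon adenocarcinoma line, and its anti-PD-1 resistant form was compared with its parental form. Members were taken by symbol alone, as every gene named Psma to Psmg followed by a number, with pseudogenes left out, which gave 50 of the 22329 genes of the deposited table. By role they were 7 alpha ring subunits, 7 constitutive beta ring subunits, 6 ATPases and 14 non-ATPase members of the regulatory particle (11 subunits and the base chaperones Psmd5, Psmd9 and Psmd10), 5 subunits inducible by interferon, 2 other activators, 1 inhibitor, 4 chaperones of core assembly and 2 tissue-restricted subunits. The other 2 match by name only: Psmc3ip, a cofactor of meiotic recombination, and Psme2b, a near copy of Psme2 whose reads may be shared with it, so its values are uncertain.

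The proteasome cuts ubiquitin-tagged proteins into short peptides. Its core is a barrel of alpha and beta rings, with the cutting sites on the beta rings, and the regulatory particle at its ends binds, unfolds and feeds in the substrate. Under interferon gamma, cells make Psmb8, Psmb9 and Psmb10, which take the places of the cutting subunits Psmb5, Psmb6 and Psmb7 in newly built cores, and Psme1 and Psme2, which form an activator cap together. Psme3 forms a related cap in the nucleus. Cores with the inducible cutting subunits, called immunoproteasomes, are standard in lymphoid and antigen-presenting cells and supply many of the peptides that MHC class I shows to CD8 T cells.

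The groups were 12 resistant tumors, 13 parental tumors, 5 resistant cultures and 2 parental cultures. The tumors grew under the skin of C57BL6/J mice that received no drug, and the labels describe no treatment of the cultures. Anti-PD-1 is an antibody against a checkpoint receptor of T cells. Resistance to it was thus a property of the line, and no tumor was taken under the antibody. The labels do not say whether cultures of a line were grown apart, so p-values that use them reflect how far these samples spread, and that spread may be only technical.

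The tumors hold host cells as well as cancer cells. Summed over 16 leukocyte markers, resistant tumors had 267 to 434 TPM against 6.96 to 9.96 TPM in resistant cultures, and parental tumors 288 to 897 TPM against 15.1 to 32.2 TPM in parental cultures. Colon epithelial markers, 8 in all and Epcam and Cdh1 among them, summed to at most 11.9 TPM in any tumor and 5.17 TPM in any culture, so the defining markers of the labelled tissue of origin were nearly absent. In bulk samples, fewer cells of a type and less RNA per cell cannot be told apart. Tumor and culture libraries carry different name prefixes, so any handling that differed with the prefix cannot be told apart from the setting. Within the tumors, the name numbers are lower in every parental than in every resistant library. Any handling that followed these numbers cannot be told apart from the line. In 4 parental tumors GC-rich genes stood high (a GC index above 0.5, against -0.52 to 0.26 in resistant tumors), and results that rest on them are given with and without them. Values are TPM, a length-scaled share of all transcripts in the library, so depth is unknown and every change is relative to the rest of the RNA.

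The promoters of Psmb8 and Psmb9 and of their counterparts show what the DNA beside these genes holds, since the inducible members moved together between culture and tumor. Psmb7 had no promoter entry, so its pair with Psmb10 is not printed. RefSeq promoters (GRCm38.p6) matched 42 of the 50 members in 45 windows of the 250 bases before a start. The inducible cutting subunits Psmb8 (chr17:34197945-34198194, plus strand) and Psmb9 (chr17:34187331-34187580, minus strand) lie close together, and Psmb9 shares its window in part with that of Tap1 (chr17:34187306-34187555, plus strand), the peptide transporter gene that starts the other way. The constitutive counterparts are Psmb5 (chr14:54617996-54618245, minus strand) and Psmb6 (chr11:70525107-70525356, plus strand). Capitals mark a match, on either strand, to GAAANNGAAA (a pair of IRF cores), CCAAT (the NF-Y box) or TGACNNNGC (the antioxidant element of Nfe2l1 and its relatives), and the windows of Psmb9, Psmb5 and Psmb6 hold 1 match each.
Psmb8: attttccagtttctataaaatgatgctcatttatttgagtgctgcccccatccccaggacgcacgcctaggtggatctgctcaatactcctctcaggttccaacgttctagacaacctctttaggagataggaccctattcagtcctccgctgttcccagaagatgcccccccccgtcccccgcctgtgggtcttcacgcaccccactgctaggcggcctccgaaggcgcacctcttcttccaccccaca
Psmb9: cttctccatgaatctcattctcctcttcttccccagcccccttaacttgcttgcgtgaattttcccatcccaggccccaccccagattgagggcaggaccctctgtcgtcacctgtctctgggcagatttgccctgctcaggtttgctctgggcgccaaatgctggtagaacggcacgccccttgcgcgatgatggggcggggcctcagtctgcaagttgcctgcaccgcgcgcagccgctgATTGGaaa
Psmb5: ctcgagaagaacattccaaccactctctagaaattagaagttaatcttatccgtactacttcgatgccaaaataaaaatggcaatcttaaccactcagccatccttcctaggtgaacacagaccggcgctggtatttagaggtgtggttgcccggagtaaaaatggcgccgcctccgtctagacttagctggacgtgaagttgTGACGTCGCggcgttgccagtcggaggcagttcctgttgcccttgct
Psmb6: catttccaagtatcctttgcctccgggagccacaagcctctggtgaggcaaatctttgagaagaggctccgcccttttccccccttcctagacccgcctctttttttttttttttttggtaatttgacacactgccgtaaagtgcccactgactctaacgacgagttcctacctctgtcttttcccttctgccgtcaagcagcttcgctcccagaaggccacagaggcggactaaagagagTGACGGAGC
The capitals are CCAAT read on the opposite strand in Psmb9 and TGACNNNGC in both Psmb5 and Psmb6, and the window of Psmb8 holds none of the 3 motifs.

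Over all windows of members these letters were counted in the same way. Psme2 has overlapping windows, so the 6 windows of inducible members come from 5 genes. GAAANNGAAA was in 0 of 6 windows of inducible members and 3 of 39 windows of other members (Psmd4, Psmd9 and Psmb3), beside 2.98% of all 32851 promoters. TGACNNNGC was in 0 of 6 and 5 of 39 windows (Psmb5, Psmb6, Psmc6, Psmd9 and Psmd12), beside 10.2%, and CCAAT in 1 of 6 and 14 of 39, beside 33.8%. These are matches of letters within 250 bases, and the absence of a match says nothing about a factor.

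Levels differed widely among the members. In resistant tumors the highest means were Psme2 at 1384 ± 288 TPM, Psma7 at 1064 ± 138 TPM and Psmc1 at 874 ± 230 TPM (SD, n = 12), and the 50 members summed to 9956 to 12239 TPM. In parental tumors Psme2 and Psma7, at 1047 ± 236 and 1035 ± 178 TPM (SD, n = 13), did not differ beyond their spread. In resistant and parental cultures Psma7 (1332 ± 288 and 1083 ± 220 TPM) and Psmc1 (1119 ± 103 and 1061 ± 112 TPM) ranked above Psme2, with n = 5 and n = 2. Among inducible members Psmb9 was the lowest in every group. Its rank among members was 32 in resistant tumors and 34 in parental tumors, against 47 in both cultures. Psma8, the alpha subunit of germ cells, and Psmb11, the beta subunit of the thymic cortex, stayed under 1 TPM in every library and were listed at 0 in all 7 cultures. Both missed the filter for testing (1 TPM or more in a number of libraries equal to the size of the smaller group), which the other 48 passed.

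All 5 inducible members were higher in tumors than in culture, in both lines. With Psme2b they made up the 6 members called higher in resistant tumors (35.3% of the 12312 genes tested were called higher there) and the 6 called higher in parental tumors (16.1% of 14348 genes). Calls are at an adjusted p under 0.05 in limma, a linear model with moderated variances fitted to all genes on log2(TPM + 1), with Benjamini-Hochberg adjustment. The median log2 change of the 5 was 1.91 in the resistant line and 2.02 in the parental line, beside medians over all genes tested of 0.18 and 0.21. These medians over all genes depend on the scaling: by quantile normalization they were -0.13 and -0.09.

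**Figure D1:**
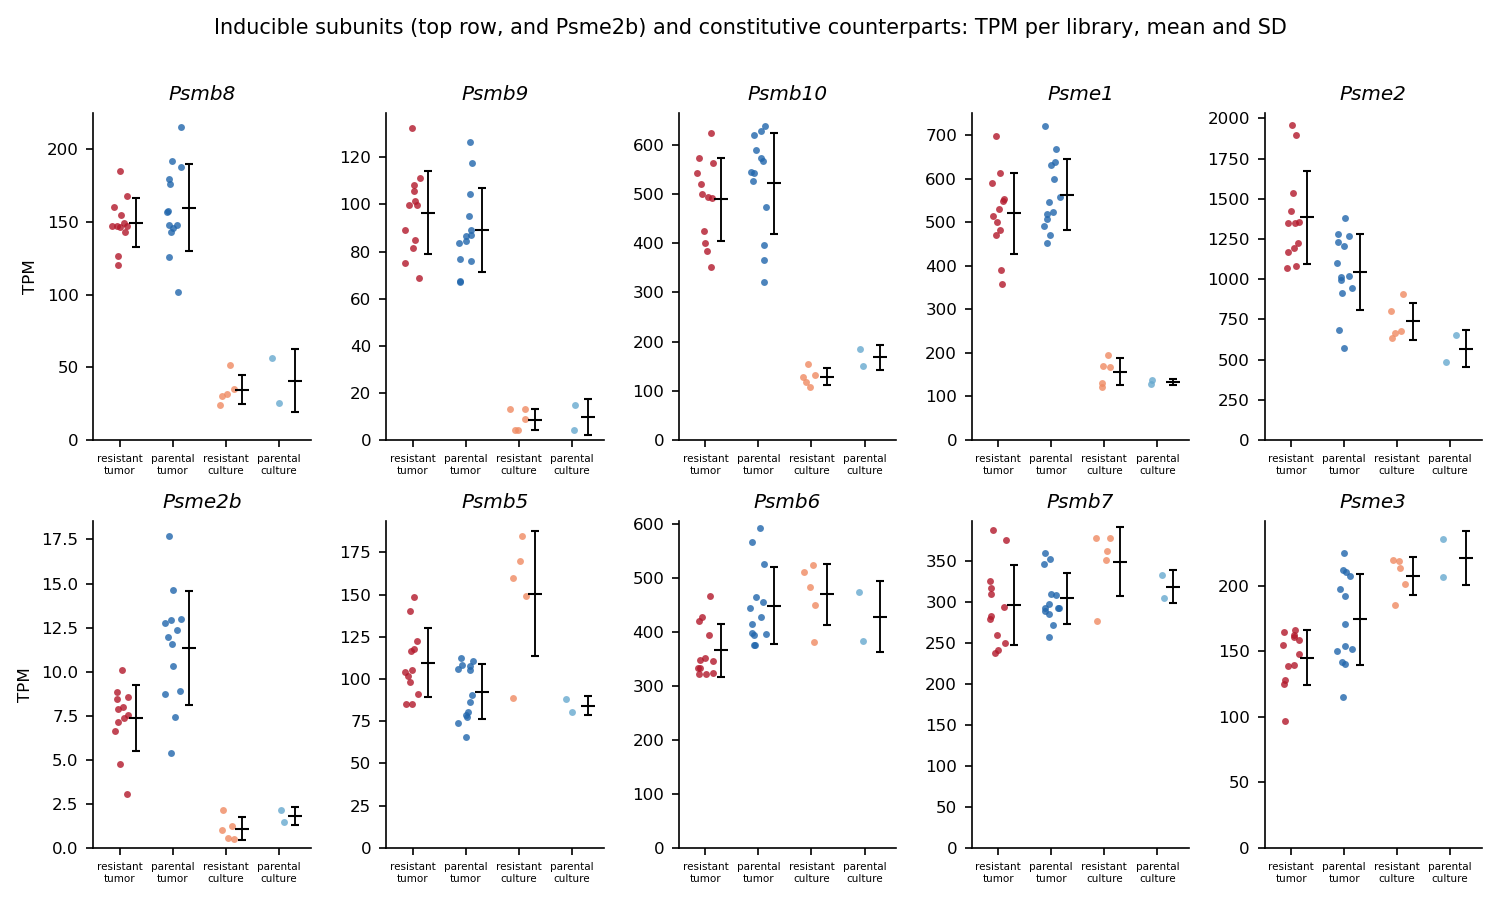
TPM (y axes, linear from 0) in each library, as points, for the 5 inducible members, Psme2b and the constitutive counterparts Psmb5, Psmb6, Psmb7 and Psme3, in resistant tumors, parental tumors, resistant cultures and parental cultures. Bars are mean and SD; all tumor points of Psmb8, Psmb9, Psmb10 and Psme1 lie above every culture point, while for Psmb6 and Psmb7 tumors and cultures overlap.

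Psmb9 changed most. Its level in resistant tumors was 68.8, 99.9 and 132 TPM (lowest, median and highest), against 13.3, 8.95, 4.02, 4.07 and 13.0 TPM in the 5 resistant cultures. That is a log2 change of 3.46 ± 0.22 (SE, limma adjusted p = 2.71e-11). In parental tumors it was 66.98, 86.4 and 126 TPM, against 4.31 and 15.0 TPM in parental cultures. Every tumor lay above every culture of its line, and the cultures of each line were themselves far apart. The parental log2 change was 3.27 ± 0.29 (adjusted p = 1.37e-07), and ran from 2.47 to 4.06 with 1 library left out.

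Psmb8, which carries the chymotrypsin-like activity of the immunoproteasome, had 121, 147 and 185 TPM in resistant tumors, against 51.3, 31.9, 30.4, 24.0 and 35.4 TPM in resistant cultures (log2 change 2.12 ± 0.13, adjusted p = 1.78e-11). Parental tumors had 102, 157 and 215 TPM, against 25.7 and 56.1 TPM in parental cultures (2.02 ± 0.25, adjusted p = 9.14e-06). No tumor overlapped a culture of its line. Psmb10, which carries the trypsin-like activity, had 352, 497 and 624 TPM in resistant tumors, against 155, 132, 118, 108 and 128 TPM in resistant cultures (1.91 ± 0.13, adjusted p = 5.94e-11). In parental tumors it had 321, 544 and 639 TPM, against 186 and 149.7 TPM in parental cultures (1.61 ± 0.23, adjusted p = 4.11e-05). The groups were again fully apart, although Psmb10 was the best expressed inducible cutting subunit in culture.

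Of the activator pair, Psme1 moved more than Psme2. Psme1 had 358, 523 and 698 TPM in resistant tumors, against 168, 195, 121, 169.6 and 132 TPM in resistant cultures (log2 change 1.72 ± 0.14, adjusted p = 1.49e-09). Parental tumors had 453, 546 and 721 TPM, against 128 and 138 TPM in parental cultures (2.06 ± 0.17, adjusted p = 5.18e-08), with no overlap in either line. Psme2 had 1069, 1350.2 and 1959 TPM in resistant tumors, against 909, 799, 679.9, 633 and 665 TPM in resistant cultures (0.89 ± 0.14, adjusted p = 1.62e-05), again apart. In parental tumors it had 571, 1018 and 1382 TPM, against 486 and 649.9 TPM in parental cultures (0.86 ± 0.26, adjusted p = 0.0232), and here the groups overlapped. That parental call ended without parental culture replicate 1 (0.65, adjusted p = 0.339) and without replicate 2 (1.07, adjusted p = 0.0702), while the other 4 inducible members passed in the parental line under every alternative tried. Psme2b followed its parent gene's direction at a far lower level, with 3.06 to 10.1 TPM in resistant tumors against 0.519 to 2.13 TPM in resistant cultures, and 5.37 to 17.7 TPM in parental tumors against 1.44 and 2.16 TPM in parental cultures.

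Markers of host cells moved with these genes. In both lines 13 leukocyte markers were called higher in tumors than in culture, of 14 tested in the resistant line and 15 in the parental line, and Ptprc, the pan-leukocyte gene, reached 19.7 to 50.3 TPM in resistant tumors and 14.5 to 53.7 TPM in parental ones, but at most 0.147 TPM in any culture. The 5 endothelial markers were called higher in both lines, as were 4 of 6 fibroblast markers. The fibroblast markers were not confined to tumors. They summed to 263 to 837 TPM in resistant cultures and 73.9 to 118 TPM in parental cultures. In resistant tumors the sum was 652 to 1957 TPM, and in parental tumors 205 to 1476 TPM. So this list does not mark host cells alone. How much of the inducible level in tumors came from host cells was not tested.

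**Figure D2:**
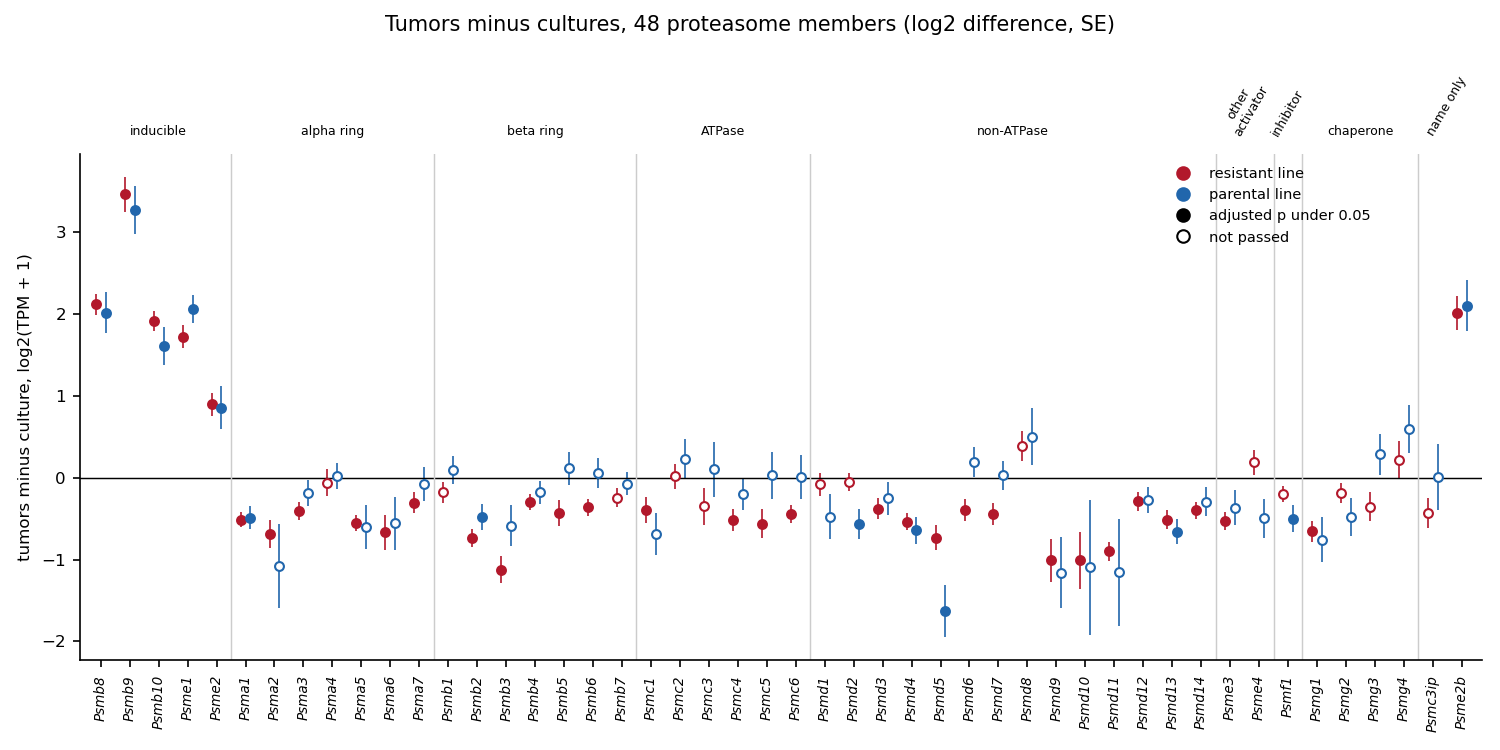
Log2 difference between tumors and cultures (y axis, log2(TPM + 1), bars are SE) for the 48 members tested, grouped by role, in the resistant line (red) and the parental line (blue). Filled points pass an adjusted p of 0.05; the inducible group and Psme2b stand from 0.86 to 3.46, and most other members lie at or below 0.

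The constitutive subunits were either called lower or did not pass. Of the 31 subunits of the alpha ring, beta ring and regulatory particle, 0 were called higher and 23 lower in resistant tumors, with 8 not passing and a median log2 change of -0.40. In the parental line 0 were higher, 5 were lower and 26 did not pass, with a median of -0.20. The changes of the 31 ran from -1.16 to 0.50 there, with 11 above 0. In the resistant line they ran from -1.13 to 0.39, with 2 above 0. A change that did not pass is thus not shown to be absent. The base chaperones Psmd5, Psmd9 and Psmd10 were also called lower in the resistant line, and Psmd5 in the parental line. Over all members 28 were called lower in the resistant line, where 15.0% of genes were, and 7 in the parental line, where 5.99% were. Without either parental culture, the spread of the lone culture is assumed to be that of the tumors. The parental count thus rests on 2 cultures. Without the 4 parental tumors of high GC index it was 14, where 10.7% of genes were lower. Median-of-ratios scaling gave 34 members lower in the resistant line (21.1% of genes) and 10 in the parental line (7.98%). Quantile normalization gave 29 (29.1% of genes) and 6 (10.5%), so the 6 are near the share of all genes under that scaling.

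Among alpha ring subunits, which gate the barrel, 6 of 7 were called lower in resistant tumors and only Psma1 in parental tumors. Psma1 had 171, 189.8 and 217 TPM in resistant tumors, against 218 to 308 TPM in resistant cultures (log2 change -0.51 ± 0.09, adjusted p = 9.47e-05). In parental tumors it had 137, 169 and 190.1 TPM, against 230.3 and 239 TPM in parental cultures (-0.49 ± 0.14, adjusted p = 0.0162), so it sat below culture without overlap in both lines, although the parental call ended without either parental culture (adjusted p = 0.108 and 0.165). Of the constitutive beta ring, 5 of 7 were called lower in resistant tumors and only Psmb2 in parental tumors.

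Psmb3, a structural beta subunit, fell most of the constitutive members in the resistant line. It had 71.9, 93.1 and 179.956 TPM in resistant tumors, against 165, 290.3, 214, 194 and 219 TPM in resistant cultures (log2 change -1.13 ± 0.17, adjusted p = 1.03e-05). A single resistant tumor reached into the culture range. In the parental line its change of -0.59 ± 0.25 did not pass (adjusted p = 0.103), with 93.5, 142 and 203 TPM in parental tumors, against 281 and 161 TPM in parental cultures.

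The 3 cutting subunits that the inducible ones replace changed little by comparison. Psmb5 had 85.1, 105 and 148 TPM in resistant tumors, against 88.7, 185, 169.9, 159.9 and 149 TPM in resistant cultures (log2 change -0.43 ± 0.15, adjusted p = 0.0249). The lowest culture, replicate 1, lay inside the tumor range, and the call ended without any 1 of the other 4 resistant cultures (adjusted p = 0.0523 to 0.0922). In parental tumors Psmb5 had 65.7, 90.6 and 112 TPM, against 88.3 and 80.2 TPM in parental cultures (0.11 ± 0.20, adjusted p = 0.702). Psmb6 had 321, 347 and 465 TPM in resistant tumors, against 381 to 523 TPM in resistant cultures (-0.36 ± 0.10, adjusted p = 0.00634), and 375, 426 and 591 TPM in parental tumors, against 474 and 382 TPM in parental cultures (0.06 ± 0.18, adjusted p = 0.831). Psmb7 passed in neither line, at 238, 288 and 388 TPM in resistant tumors against 277 to 378 TPM in resistant cultures (-0.24 ± 0.12, adjusted p = 0.0940), and 258, 293 and 359.954 TPM in parental tumors against 333 and 305 TPM in parental cultures (-0.07 ± 0.15, adjusted p = 0.739). For resistant Psmb7 the call depends on the setting, since it passed with median-of-ratios scaling (-0.37, adjusted p = 0.00992), with the GC index as covariate (-0.34, adjusted p = 0.00389), without resistant culture replicate 1 (-0.32, adjusted p = 0.0339) and without resistant tumor replicate 3 or 12 (adjusted p = 0.0418 and 0.0480).

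In the regulatory particle, 4 of 6 ATPases, which unfold the substrate, were called lower in resistant tumors and 0 of 6 in parental tumors. Of the 11 non-ATPase subunits, 8 were called lower in resistant tumors and 3 in parental tumors. Psmd5, a chaperone of the particle's base, had the largest fall of any member in the parental line, with 21.9, 46.2 and 61.7 TPM in parental tumors against 140.3 and 127 TPM in parental cultures (log2 change -1.63 ± 0.32, adjusted p = 0.000937). It also fell in the resistant line, with 31.5, 40.8 and 60.2 TPM in resistant tumors against 58.2, 87.1, 77.2, 60.9 and 77.1 TPM in resistant cultures (-0.73 ± 0.15, adjusted p = 0.000557), where the ranges touched.

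Psmd13 and Psmd4, a lid subunit and a ubiquitin receptor, had the next largest falls among the members called in the parental line. Psmd13 had 61.1, 77.2 and 94.4 TPM in parental tumors, against 119 and 125 TPM in parental cultures (log2 change -0.66 ± 0.16, adjusted p = 0.00483, but 0.0882 without parental culture replicate 2). Psmd4 had 290.5, 366 and 419 TPM in parental tumors, against 644 and 487 TPM in parental cultures (-0.64 ± 0.16, adjusted p = 0.00857, but 0.259 without parental culture replicate 1). In the resistant line both also passed, at -0.51 ± 0.11 and -0.54 ± 0.10.

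Psmd10 and Psmd9, chaperones of base assembly, were the lowest of the resistant line after Psmb3. Psmd10 had 8.81, 46.8 and 62.8 TPM in resistant tumors, against 56.3, 81.5, 82.3, 78.4 and 71.4 TPM in resistant cultures (log2 change -1.01 ± 0.34, adjusted p = 0.0184, but 0.0995 in 1 fit over all 4 groups). Psmd9 had 21.4, 44.4 and 72.6 TPM in resistant tumors, against 71.1, 100.1, 89.8, 74.2 and 75.5 TPM in resistant cultures (-1.01 ± 0.26, adjusted p = 0.00317). Resistant tumors reached the culture range in both genes and were widely spread. Neither passed in the parental line, with changes of -1.10 ± 0.82 and -1.16 ± 0.44. The parental Psmd10 change leaned on the 4 parental tumors of high GC index, at 5.53, 8.94, 7.48 and 5.45 TPM. The other parental tumors had 21.9 to 64.5 TPM of Psmd10 and overlapped the parental cultures, at 53.4 and 60.2 TPM. For Psmd9 the same 4 were lowest, but every parental tumor (up to 71.2 TPM) lay below the parental cultures (83.9 and 74.9 TPM).

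The remaining roles were mixed. Psme3 was lower in resistant tumors, at 97.1, 151 and 166 TPM against 219, 185, 201, 213 and 219 TPM in resistant cultures (log2 change -0.52 ± 0.11, adjusted p = 0.000547), with no overlap. In parental tumors it had 115, 171 and 225 TPM, against 236 and 207 TPM in parental cultures (-0.36 ± 0.22, adjusted p = 0.246). Psmf1, an inhibitor of the core, was called lower in the parental line (-0.50 ± 0.16, adjusted p = 0.0357, but 0.267 and 0.162 without parental culture replicate 1 and 2), beside -0.20 ± 0.10 in the resistant line. Of the 4 chaperones of core assembly Psmg1 was called lower in the resistant line (-0.65 ± 0.13, adjusted p = 0.000239), and the others passed in neither line.

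The exchange of catalytic subunits takes place in protein, as cores are built, and was not measured. In its place the RNA ratios of each inducible cutting subunit to its counterpart were read within a library, over all cells of the sample. Psme2 over Psme3 was read beside them as a ratio of cap subunits, which is not an exchange of catalytic subunits. The shares are of plain TPM and do not depend on how libraries are scaled. The tested log2 ratios are of TPM + 1, which draws the low Psmb9 values of the cultures in. As a share of the pair, Psmb8 made up 57.9 ± 3.80% in resistant tumors and 63.0 ± 6.80% in parental tumors, against 19.7 ± 9.70% in resistant cultures and 31.8 ± 13.2% in parental cultures (SD, n = 12, 13, 5 and 2). Psmb10 made up 62.1 ± 4.84% and 62.6 ± 5.96% in resistant and parental tumors, against 27.1 ± 5.20% and 34.4 ± 2.02% in resistant and parental cultures. Psmb9 stayed the minor partner, at 20.95 ± 3.36% in resistant tumors and 16.6 ± 2.10% in parental tumors, against 1.90 ± 1.16% in resistant cultures and 2.35 ± 2.04% in parental cultures. So Psmb8 and Psmb10 outweighed their counterparts in the mean of each tumor group and not in culture, while Psmb9 was outweighed by Psmb6 in all 32 libraries. Psme2 made up 90.3 ± 2.10% of its pair with Psme3 in resistant tumors and 85.3 ± 3.23% in parental tumors, against 77.8 ± 2.96% in resistant cultures and 71.6 ± 6.08% in parental cultures.

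**Figure D3:**
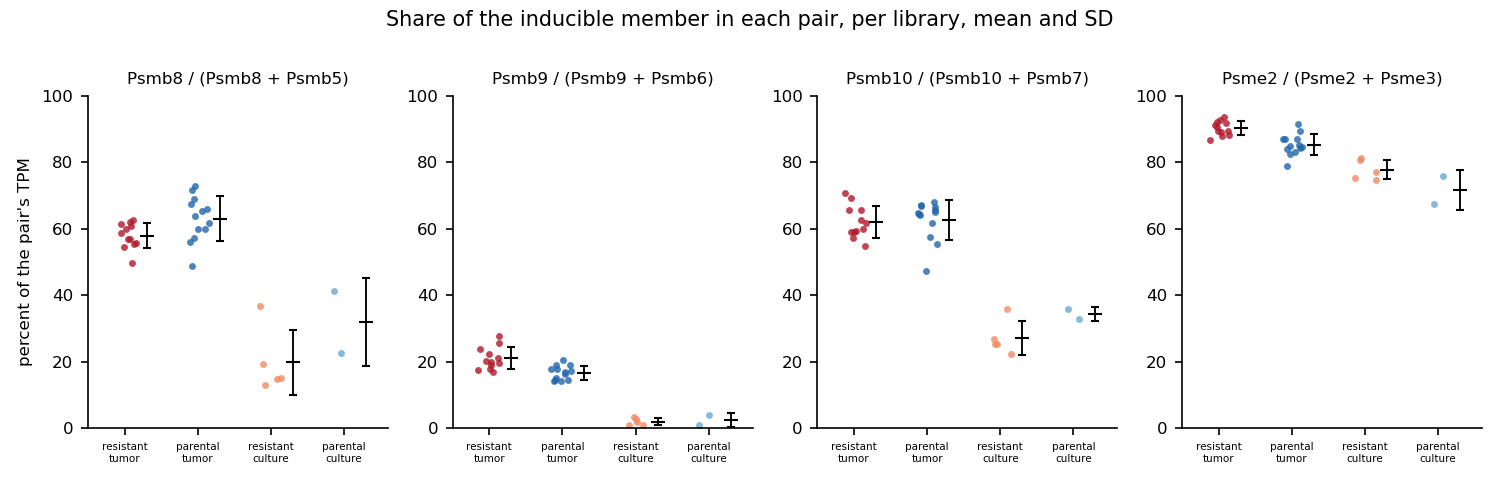
Share of the inducible member in the TPM of each pair (y axis, percent, from 0 to 100) in every library of resistant tumors, parental tumors, resistant cultures and parental cultures, with mean and SD. Tumor and culture points of a line do not overlap in any pair, and the highest share of Psmb9 is 27.6%.

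Between tumors and cultures, 4 of 4 log2 ratios differed in both lines. In the resistant line the differences were 3.82 ± 0.40 for Psmb9 over Psmb6, 2.55 ± 0.35 for Psmb8 over Psmb5, 2.16 ± 0.18 for Psmb10 over Psmb7 and 1.42 ± 0.15 for Psme2 over Psme3 (SE). Each had the smallest p the exact permutation test allows, 0.000162, and an adjusted p of 0.000646 over the 16 ratio comparisons. The parental differences were 3.21 ± 0.95, 1.90 ± 0.63, 1.68 ± 0.13 and 1.22 ± 0.32 in the same order, again at the smallest exact p, 0.00952 (adjusted 0.0152). Every tumor stood beyond the cultures of its line in all 4 ratios. With a pseudocount of 0.1 the Psmb9 differences were 3.99 and 3.37 in the resistant and parental line. With 1 parental culture left, the design cannot reach the threshold, and the Psmb9 difference then ran between 2.26 (without replicate 1) and 4.16 (without replicate 2).

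The lines differed in the tumors in 3 of these ratios, and not all the same way. Psmb9 over Psmb6 was higher in resistant tumors by 0.40 ± 0.10 (permutation test of 100000 resamples, p = 0.000500, adjusted p = 0.00133), and all 12 lay above the parental mean. Of this pair Psmb6 was called lower in resistant tumors (mean 365 against 448 TPM), while Psmb9 did not pass (96.6 against 89.3 TPM). With the GC index as covariate the Psmb6 difference did not pass either (-0.15, limma adjusted p = 0.114). Psme2 over Psme3 was higher by 0.67 ± 0.15 (permutation p = 0.000230, adjusted p = 0.000736). Psmb8 over Psmb5 was lower, at -0.32 ± 0.13 (permutation p = 0.0266, adjusted p = 0.0387), a call that ended without any 1 of parental tumors 1, 4, 9, 10, 11, 12 and 13 or resistant tumors 1, 2, 8, 9, 10 and 12 (adjusted p up to 0.0752), and was -0.49 without the 4 parental tumors of high GC index (adjusted p = 0.00222). Psmb10 over Psmb7 did not pass, at -0.04 ± 0.13 (permutation p = 0.792). In the cultures the ratios had adjusted p of 0.234 to 0.711 by exact test, in a design of 5 against 2 whose smallest p is 0.0476.

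Gene by gene, the inducible members other than Psme2 did not pass between resistant and parental tumors. Over all 48 tested members, 10 were called higher in resistant tumors, where 16.3% of the 12095 genes tested were, and 8 lower, where 13.9% were. The median log2 difference of the members was 0.04, the same as over all genes. So the share of members called was close to that of all genes. Of the 5 inducible members Psmb9 (0.11 ± 0.11), Psmb8 (-0.08 ± 0.10), Psmb10 (-0.08 ± 0.11) and Psme1 (-0.12 ± 0.10) did not pass (limma adjusted p = 0.354 to 0.605).

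Psme2 was higher in resistant tumors, with 1069, 1350.2 and 1959 TPM against 571, 1018 and 1382 TPM in parental tumors (log2 difference 0.42 ± 0.13, adjusted p = 0.0142). The ranges overlapped, and 12 of 12 resistant tumors lay above the parental mean on the log2 scale. Adding the GC index as a covariate gave 0.26, which did not pass (adjusted p = 0.111), while leaving out the 4 parental tumors of high GC index gave 0.29 (adjusted p = 0.0476). Psme2b went the other way, at 3.06, 7.69 and 10.1 TPM in resistant tumors against 5.37, 12.0 and 17.7 TPM in parental tumors (-0.56 ± 0.16, adjusted p = 0.00909).

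**Figure D4:**
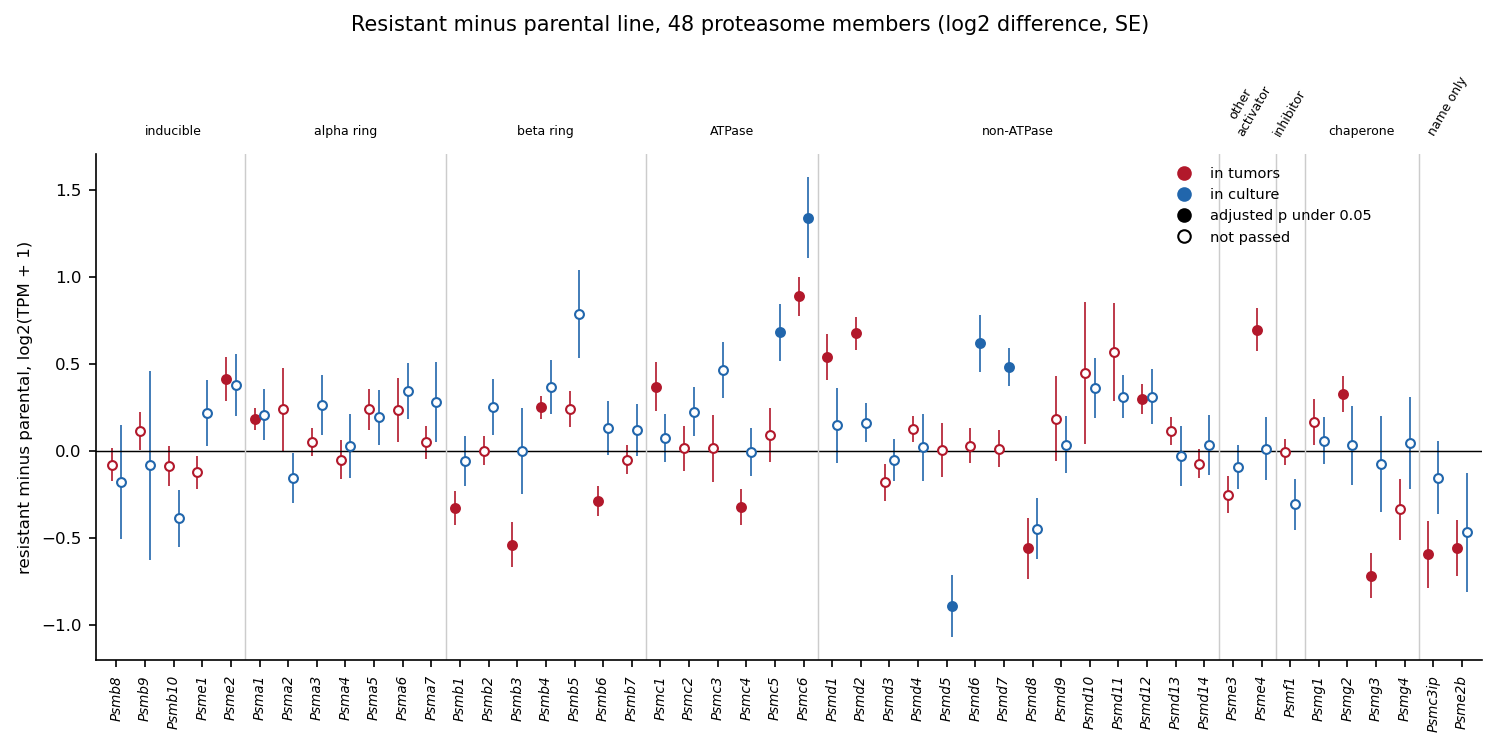
Log2 difference between the resistant and parental line (y axis, log2(TPM + 1), bars are SE) for the 48 members tested, grouped by role, in tumors (red) and in culture (blue). Filled points pass an adjusted p of 0.05; Psmc6 passes in both settings, at 0.89 and 1.34, and no inducible member passes in culture.

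Psmc6, an ATPase of the base, showed the largest line difference. It had 313, 357 and 381 TPM in resistant tumors, against 111, 211 and 251 TPM in parental tumors (log2 difference 0.89 ± 0.11, adjusted p = 1.41e-06). Every resistant tumor lay above every parental tumor. In culture it had 309, 497, 549, 546 and 548 TPM in the resistant cultures, against 163 and 217 TPM in the parental cultures (1.34 ± 0.24, adjusted p = 0.00641). Psmc6 also has the lowest GC content of the 50 members, 37.0%. Its difference in tumors was 0.70 when the GC index was a covariate (adjusted p = 5.74e-06) and 0.67 once the 4 parental tumors of high index were left out (adjusted p = 4.11e-07).

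Psme4, a nuclear activator of the core, had the next largest rise, with 40.3, 80.3 and 92.0 TPM in resistant tumors against 31.99, 43.4 and 69.6 TPM in parental tumors (log2 difference 0.70 ± 0.12, adjusted p = 0.000126), and 11 of 12 resistant tumors lay above the parental mean. Psmd2, a large scaffold subunit of the base, had 153, 196 and 263 TPM in resistant tumors, against 89.5, 115 and 159.9 TPM in parental tumors (0.68 ± 0.09, adjusted p = 4.09e-06). Only the ends of the ranges met. Psmd1, the other large scaffold subunit, had 340.0, 465 and 699.979 TPM in resistant tumors, against 216, 331 and 524 TPM in parental tumors (0.54 ± 0.13, adjusted p = 0.00255). All 4 of these genes passed under each of the 36 alternatives, as did Psmd12 (0.30) and Psmb4 (0.25). Psma1 (0.19), Psmg2 (0.33) and Psmc1 (0.37) made up the rest of the rises: Psma1 did not pass with median-of-ratios scaling (adjusted p = 0.059), Psmg2 not with either GC setting (adjusted p = 0.125 with the covariate and 0.105 without the 4 tumors), and Psmc1 failed in 19 of the 36.

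**Figure D5:**
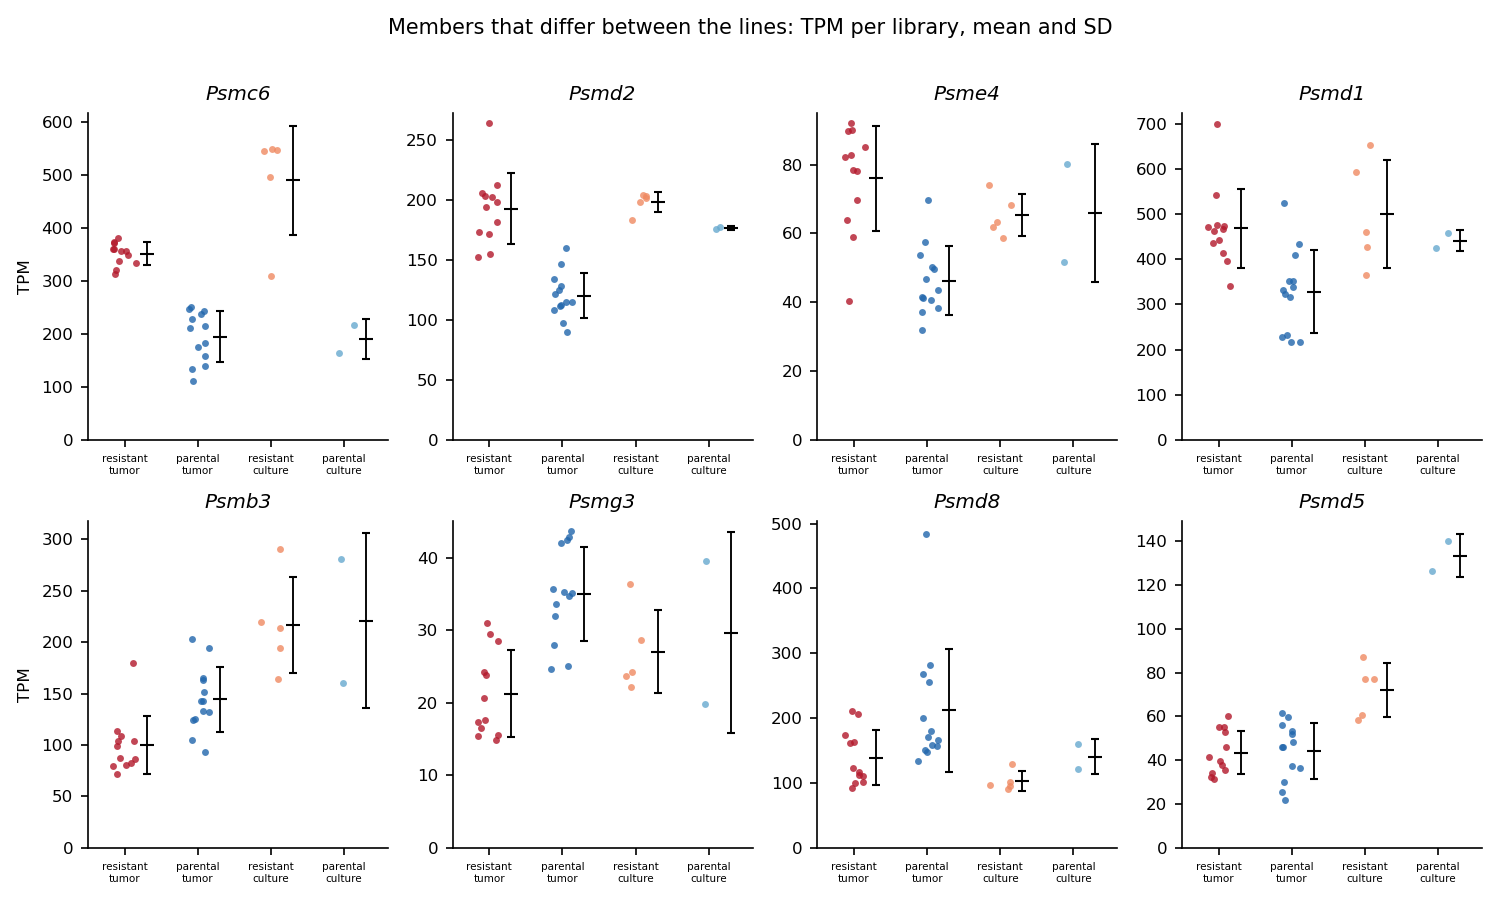
TPM (y axes, linear from 0) in each library, as points with mean and SD, for Psmc6, Psmd2, Psme4, Psmd1, Psmb3, Psmg3, Psmd8 and Psmd5 in resistant tumors, parental tumors, resistant cultures and parental cultures. Resistant tumors of Psmc6 (313 to 381 TPM) lie wholly above parental tumors (111 to 251 TPM), and the highest parental tumor of Psmd8 reaches 484 TPM.

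Among the falls, Psmg3, a chaperone of alpha ring assembly, was lowest, with 14.9, 19.2 and 31.0 TPM in resistant tumors against 24.7, 35.2 and 43.7 TPM in parental tumors (log2 difference -0.72 ± 0.13, adjusted p = 0.000159). Psmb3 had 71.9, 93.1 and 179.956 TPM in resistant tumors, against 93.5, 142 and 203 TPM in parental tumors (-0.54 ± 0.13, adjusted p = 0.00241). In each gene the ranges overlapped, with 12 and 11 of the 12 resistant tumors below the parental mean. Psmg3, Psmb3 and Psme2b passed under each of the 36 alternatives.

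The other 5 falls ended when the GC index was taken into account. Psmd8, a lid subunit, had 92.4, 120.1 and 210.3 TPM in resistant tumors, against 133, 171 and 484 TPM in parental tumors (log2 difference -0.56 ± 0.18, adjusted p = 0.0176). Psmc3ip had 6.95, 10.5 and 17.4 TPM in resistant tumors, against 8.13, 14.7 and 34.2 TPM in parental tumors (-0.59 ± 0.19, adjusted p = 0.0204). In both genes the highest parental tumors stood far above every resistant tumor. With the GC index as a covariate, Psmd8 (-0.13, adjusted p = 0.271), Psmc3ip (-0.16, adjusted p = 0.317), Psmb1 (-0.16, adjusted p = 0.121), Psmc4 (-0.11, adjusted p = 0.273) and Psmb6 (-0.15, adjusted p = 0.114) did not pass, and none of the 5 passed without the 4 parental tumors of high index. Without those tumors 10 members were called higher and 4 lower, where 14.1% and 13.4% of genes were, and the 4 were Psmg3, Psmb3, Psme2b and Psme3.

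The covariate fit also gained calls, with 14 members higher and 8 lower in all (17.9% and 15.0% of genes). The falls gained were Psma2 (-0.34), Psmd10 (-0.58), Psmd5 (-0.31), Psmd9 (-0.38) and Psme3 (-0.44), and the rises gained were Psmc3 (0.49), Psmc5 (0.48), Psma5 (0.34), Psmb5 (0.34), Psmc2 (0.28) and Psmd7 (0.23). Without a covariate, Psma2, Psmd10 and Psmd9 leaned higher in resistant tumors and did not pass. With each library left out in turn they ran from 0.09 to 0.31, 0.28 to 0.62 and 0.10 to 0.27. With Ptprc as covariate, Psma2 (0.55, limma adjusted p = 0.0348) and Psmd10 (1.003, adjusted p = 0.0204) were called higher. The direction of Psma2, Psmd10 and Psmd9 thus depended on the fit. Of the constitutive counterparts, Psmb5 had 85.1, 105 and 148 TPM in resistant tumors, against 65.7, 90.6 and 112 TPM in parental tumors (log2 difference 0.24 ± 0.11, adjusted p = 0.0818). Psme3 had 97.1, 151 and 166 TPM in resistant tumors, against 115, 171 and 225 TPM in parental tumors (-0.25 ± 0.11, adjusted p = 0.0733), and passed without the 4 parental tumors of high index (-0.38, adjusted p = 0.00649). Psmb7 did not pass (-0.05 ± 0.08, adjusted p = 0.689), and Psmb6 was among the falls above (-0.29 ± 0.09, adjusted p = 0.0115). In each of these genes the ranges overlapped.

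The leukocyte markers were lower in resistant tumors, with 8 of 14 tested called lower and 0 higher. Fibroblast markers (3 of 6) and skeletal muscle markers (3 of 5) were called higher there and 0 lower, and of 5 endothelial markers 0 were called. The log2 differences of the 6 fibroblast markers ran from -0.60 to 2.18, with 3 above 0 and 3 below. Between resistant and parental cultures 1 of 4 fibroblast markers tested was called higher and 1 lower, from -2.34 to 6.87. So this list also differed between the lines in culture. The part of these markers in the line differences of the members was not tested. With Ptprc as a covariate the log2 differences of the inducible members were 0.15 for Psmb9, 0.03 for Psmb8, 0.01 for Psmb10, -0.15 for Psme1 and 0.57 for Psme2, and Psme2 alone passed (adjusted p = 0.000333). In that fit 14 members were called higher and 9 lower, where 25.2% and 19.2% of all genes were.

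In culture 4 members were called higher in the resistant line, where 6.15% of the 11201 genes tested were, and 1 lower, where 8.04% were, with 43 not passing. The share of the 48 tested members called higher was close to that of all genes. None of the 5 inducible members passed, with log2 differences of 0.38 ± 0.18 for Psme2, 0.22 ± 0.19 for Psme1, -0.08 ± 0.54 for Psmb9, -0.18 ± 0.33 for Psmb8 and -0.39 ± 0.16 for Psmb10 (limma adjusted p = 0.149 to 0.945). Psmb9 had 13.3, 8.95, 4.02, 4.07 and 13.0 TPM in the resistant cultures, against 4.31 and 15.0 TPM in the parental cultures, so both lines spanned the same range.

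Besides Psmc6, the rises in resistant cultures were Psmc5, another ATPase of the base, and the lid subunits Psmd6 and Psmd7. Psmc5 had 212, 261, 316, 304 and 278 TPM in the resistant cultures, against 175 and 163 TPM in the parental cultures (log2 difference 0.68 ± 0.16, adjusted p = 0.0247). Psmd6 had 102, 129.7, 137, 143 and 111 TPM in the resistant cultures, against 86.5 and 74.3 TPM in the parental cultures (0.62 ± 0.16, adjusted p = 0.0359). Psmd7 had 228 to 244 TPM in the resistant cultures, against 162 and 172 TPM in the parental cultures (0.48 ± 0.11, adjusted p = 0.0192). Psmd5 was the member called lower, with 58.2, 87.1, 77.2, 60.9 and 77.1 TPM in the resistant cultures against 140.3 and 127 TPM in the parental cultures (-0.89 ± 0.18, adjusted p = 0.0119). No resistant culture overlapped a parental one in any of the 5 genes. These genes were picked as called in the same comparison, and the share of all genes without overlap was not counted. With 1 parental culture left out, the other is assumed to vary like the resistant cultures, so only the differences are given. The differences stayed close to those above, at 1.14 and 1.55 for Psmc6, -0.82 and -0.97 for Psmd5 and 0.44 and 0.53 for Psmd7 without replicate 1 and replicate 2. Without resistant culture replicate 1 the count was 10 higher and 2 lower. Without resistant culture replicate 3 it was 2 higher, and without replicate 4 it was 1 higher. The share of all genes called was not computed for these fits, so the counts cannot be read against it.

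Psmb5 came close in culture, with 88.7, 185, 169.9, 159.9 and 149 TPM in the resistant cultures against 88.3 and 80.2 TPM in the parental cultures (log2 difference 0.79 ± 0.25, adjusted p = 0.0689). The lowest resistant culture, replicate 1, was level with the parental ones, and without it the difference was 0.97 (adjusted p = 0.00197). It also passed in 1 fit over all 4 groups (adjusted p = 0.0210). Psmb6 (0.13 ± 0.16), Psmb7 (0.12 ± 0.15) and Psme3 (-0.09 ± 0.13) did not pass.

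Whether the line difference itself changed between tumor and culture was tested with an interaction term over all 32 libraries. In limma 0 of 48 members passed in either direction, where 2.40% of the 15061 genes tested passed higher and 1.61% lower, and 8 members had an unadjusted p under 0.05. Without the 4 parental tumors of high GC index, 1 member passed, where 2.55% of genes passed lower. It was Psmc6 at -0.67 (adjusted p = 0.0348), beside -0.45 ± 0.27 (adjusted p = 0.471) with all libraries. Psmd5 had the largest term, 0.90 ± 0.34 (adjusted p = 0.149): it was lower in resistant than in parental cultures and overlapped in tumors, at 31.5, 40.8 and 60.2 TPM in resistant tumors and 21.9, 46.2 and 61.7 TPM in parental tumors. For the inducible members the terms were 0.30 ± 0.25 for Psmb10, 0.20 ± 0.38 for Psmb9, 0.10 ± 0.27 for Psmb8, 0.04 ± 0.28 for Psme2 and -0.34 ± 0.22 for Psme1. The gap between 23 and 5 constitutive subunits called lower in tumors is therefore not shown to be a difference between the lines.

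Genes that act beside the proteasome were read as fixed lists. Of 12 genes of peptide supply and MHC class I, 9 were called higher and 2 lower in resistant tumors than in resistant cultures, and 8 higher and 2 lower in the parental line. Of all genes tested, 35.3% were called higher and 15.0% lower in the resistant line, and 16.1% and 5.99% in the parental line. Tap1, whose promoter window overlaps that of Psmb9, had a log2 change of 3.25 ± 0.12 in the resistant line and 2.40 ± 0.20 in the parental line (adjusted p = 3.38e-15 and 5.58e-08). Its interaction term passed (0.85 ± 0.22, adjusted p = 0.0168). That of Psmb9 did not (0.20 ± 0.38, adjusted p = 0.896), and ran from -0.60 to 0.99 with 1 library left out. The terms of Tap1 and Psmb9 were not tested against each other. Tap1 was lower in resistant than in parental cultures, at 14.2 ± 2.38 TPM (SD, n = 5) against 31.6 ± 9.36 TPM (SD, n = 2), with an adjusted p of 0.0137 in limma. Of 10 genes of the interferon gamma route, 9 were called higher in tumors in the resistant line and 6 in the parental line, and 6 were higher in resistant than in parental tumors. Over all genes, 16.3% were called higher in resistant than in parental tumors. Irf1, an interferon-induced transcription factor, did not pass there (-0.11 ± 0.14, adjusted p = 0.574).

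Helpers of the proteasome did not follow the inducible members as a list. Of 16, 1 was called higher and 5 lower in tumors in the resistant line, and 1 higher and 2 lower in the parental line. Over all genes the shares were 35.3% and 15.0% in the resistant line, and 16.1% and 5.99% in the parental line. The 1 helper called higher was Nfe2l1, the factor that drives proteasome genes when proteasome activity drops, with a mean of 239 ± 58.6 TPM in resistant tumors (SD, n = 12) against 56.4 ± 12.9 TPM in resistant cultures (n = 5), and of 234 ± 54.7 TPM in parental tumors (n = 13) against 76.0 ± 19.7 TPM in parental cultures (n = 2). Its log2 change was 2.05 ± 0.17 in the resistant line and 1.60 ± 0.25 in the parental line (adjusted p = 2.74e-09 and 0.000118). Pomp, the maturation factor of the core, was lower in resistant tumors than in resistant cultures (-0.52 ± 0.16, adjusted p = 0.0117), as was Uchl5, a deubiquitinase of the particle, in both lines (-0.84 ± 0.15 and -1.30 ± 0.24). Between resistant and parental tumors 3 helpers were higher and 1 lower, and of 9 genes of ubiquitin supply and the Vcp unfoldase 2 were higher and 2 lower. Of all genes tested, 16.3% were called higher and 13.9% lower there, so these few calls do not set either list apart.

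Within each tumor line Psmb9 was set against Irf1, Ifng and Ptprc, and Psmb5 against Ptprc. None of the 8 relations passed after adjustment. The strongest was Psmb9 with Irf1 in the 12 resistant tumors (Pearson r = 0.61, permutation p = 0.0346, adjusted p = 0.277; Spearman rho = 0.73, permutation p = 0.00986, adjusted p = 0.0789), and r was 0.65 without the 2 tumors farthest from the median of Irf1. In the 13 parental tumors the same relation had r = 0.09 (permutation p = 0.782, adjusted p = 0.893; rho = 0.12, permutation p = 0.696, adjusted p = 0.816), and 0.09 again without the 2 farthest. Psmb9 with Ptprc had r = 0.27 in resistant tumors (permutation p = 0.388, adjusted p = 0.893; rho = 0.11, permutation p = 0.732, adjusted p = 0.816), and r was -0.56 without the 2 tumors farthest from the median of Ptprc, so its sign rests on those tumors. In parental tumors r was 0.10 (permutation p = 0.745, adjusted p = 0.893; rho = 0.09, permutation p = 0.767, adjusted p = 0.816), and 0.11 without the 2 farthest.

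The genes whose level varied most like Psmb9 across the 25 tumors, after each line's mean was subtracted, were Nr1h3 (Pearson r = 0.81), Clcn7 (0.68), Timp1 (0.65), Eif2b4 (0.62) and B3gntl1 (0.62), among the 10046 genes that averaged 5 TPM or more. Other members ranked lower: Psmb6 at rank 92 (r = 0.46), Psmb10 at 164 (0.42), Psme2 at 546 (0.32), Psmb8 at 1251 (0.25) and Psme1 at 1876 (0.20). They are a description over 25 tumors that also differ in cell makeup, and carry no test.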

How the data were processed

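Poly(A) RNA-seq libraries were made with the KAPA RNA HyperPrep kit from DNase-treated Qiagen total RNA, per the labels' protocols. The authors deposited 1 table of TPM values for 32 libraries. The submitters' processing notes name STAR and GRCh38 without a role, although the symbols are mouse, and the quantification step is not given in the sources used here. TPM columns sum to 1000000, so counts and depth are unknown.

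Values were tested as log2(TPM + 1) with limma 3.58.1 (R 4.3.3; trend, two-sided, Benjamini-Hochberg over all genes tested, threshold 0.05) on genes that reached 1 TPM in a number of libraries equal to the smaller group's size. Each comparison used its own groups, and the interaction used 1 fit over all 32 libraries. Ratios used exact permutation tests, or 100000 resamples where both groups had 10 or more libraries. Relations used 100000 resamples within each tumor line (Python 3.11.15, numpy 2.4.6, scipy 1.17.1, pandas 2.3.3, matplotlib 3.10.9). As GC index, each library was given the level of 2146 GC-rich genes (GC fraction above 0.55) relative to 1274 GC-poor genes (below 0.42) and to the other libraries. The fits were tested on simulated data.

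Members and lists were chosen with earlier results of these data known. Every member could be named, with full values for the inducible members, their counterparts, and the 3 highest and 3 lowest other calls per comparison; Pomp, Irf1 and Uchl5 were named after their values were seen. Alternatives covered the pseudocount, filter, scaling, moderation, covariates, a rank-sum test and each library left out.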

Additional observations from a re-analysis of the deposited data

Results flagged for a closer look

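In the 5 resistant cultures, 5 of the members showed 1 library far from the other 4, by a gap to the nearest library of more than 0.71 of the group's range. Replicate 1 was low for Psmb4 (180.4 TPM), Psmb7 (277 TPM), Psmc6 (309 TPM) and Psmd12 (275 TPM). Replicate 4 was low for Psmd2 (183 TPM). Of 52 members and log2 ratios tested in this group, 5 stood apart in this way. Chance flags about 1 in 20 groups. Replicate 1 is also the library without which 10 members, instead of 4, were called higher in resistant than in parental cultures. The share of all genes called without it was not computed.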

How the results depend on the processing

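Of 2313 values under an alternative, over 97 results, 2197 kept their direction and side of the threshold or stayed within the allowed range, and 116 did not. Where values changed, the cause was not tested. Between resistant and parental tumors, 4 members were lower without the parental tumors of GC index above 0.5 (13.4% of genes). With Ptprc as covariate, Psmb8 was 0.0301 and Psmb10 0.00779, and with the GC index Psmb7 was 0.0642. Between parental tumors and parental cultures, 12 members were lower in 1 fit over all groups (9.53% of genes). There were 13 lower with the GC index (7.59%) and 14 without the high-index tumors (10.7%). The GC alternatives were chosen after seeing the data. Psmb6 there was -0.0240 with median-of-ratios scaling, -0.12 with the GC index and -0.0358 without those tumors. In the interaction, 1 member was lower without those tumors (2.55% of genes). The Psmb8 term was -0.0111 with the GC index and -0.0149 without those tumors. That of Psme2 was -0.0225 with median-of-ratios scaling, -0.10 with the GC index and -0.0848 without those tumors. Among relations, Psmb9 with Ifng was 0.000749 in resistant tumors with median-of-ratios scaling and -0.18 in parental tumors without the high-index tumors, where Psmb9 with Irf1 was -0.25.

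Leaving out each library in turn gave the following ranges. The share of all genes called was not computed for these fits. Between resistant and parental cultures, 0 to 10 members were higher and 0 to 2 lower, Psmb8 ran from -0.73 to 0.37, Psmb9 from -0.88 to 0.72, Psmb6 from -0.0230 to 0.29 and Psme3 from -0.19 to 0.00405. Between parental tumors and cultures, 2 to 10 members were lower, Psmb6 ran from -0.10 to 0.21, Psmb9 from 2.47 to 4.06 and Psmb8 from 1.47 to 2.57. The interaction ran from -0.45 to 0.65 for Psmb8, -0.60 to 0.99 for Psmb9 and -0.17 to 0.25 for Psme2. In tumors, the log2 ratio Psmb8 over Psmb5 ran from -0.39 to -0.27 and Psmb10 over Psmb7 from -0.11 to 0.00417. In cultures Psmb9 over Psmb6 ran from -1.17 to 0.74. Between parental tumors and cultures the ratios ran from 1.29 to 2.52 for Psmb8, 2.26 to 4.16 for Psmb9, 1.59 to 1.77 for Psmb10 and 0.92 to 1.53 for Psme2. No paired analysis was possible because the labels give no shared animal, batch or replicate number between groups. TPM without counts limits what can be said of low values such as Psme2b in culture.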
